A study of Mus musculus with 9 samples.

Results

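RNA sequencing data of CD8+ T cells, the cytotoxic class of T cell, were compared between 24 h and 4 h of treatment with a high cytokine dose. Spleens of C57BL/6 females aged 6 weeks were the source of the cells, which received 500 nM of 1 of 2 interleukins, IL-2 or IL-15. The comparison uses 4 of the 9 libraries of the series: IL-2 at 24 h, IL-15 at 24 h, IL-2 at 4 h and IL-15 at 4 h. The other 5 are an untreated library and 4 libraries at 1 nM with the same cytokines and times. Each library was made from RNA of 3 identically treated samples that were pooled, so a condition has 1 library. The 2 cytokines therefore served as the 2 libraries on each side, and a gene was called changed only if it moved the same way with both. How pure the isolated cells were is not given in the labels, and no genetic change is named.

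IL-2 and IL-15 are growth factors of T cells that share the signalling chains of their receptors, the beta chain and the common gamma chain, and activate the kinases JAK1 and JAK3 and the transcription factor STAT5, together with the PI3K and MAP kinase pathways. A resting CD8+ T cell that receives such a signal first transcribes immediate early genes and feedback inhibitors, then builds up its metabolism and ribosomes, and later copies its DNA and divides. E2F transcription factors switch on DNA replication genes, complexes that read the cell cycle homology region (CHR) and the CCAAT box switch on mitotic genes, and interferon-activated factors read the interferon-stimulated response element (ISRE).

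Promoters of 4 genes are shown first because their genes stand for the 2 sides of the comparison: Mki67 and Mycn were higher at 24 h, and the interferon-stimulated genes Ifit1 and Rsad2 were lower. They were chosen after the values were seen. Each runs from 250 bases before to 50 bases after the start site, 5′ to 3′ on the gene's strand, from RefSeq with the build GRCm38.p6, which is not the mm8 build of the deposited counts. In Mki67, the proliferation marker Ki-67 (chr7:135716330-135716629, minus strand), capitals mark 2 CHR matches (TTTGAA) and 3 CCAAT matches, on either strand.
Mki67: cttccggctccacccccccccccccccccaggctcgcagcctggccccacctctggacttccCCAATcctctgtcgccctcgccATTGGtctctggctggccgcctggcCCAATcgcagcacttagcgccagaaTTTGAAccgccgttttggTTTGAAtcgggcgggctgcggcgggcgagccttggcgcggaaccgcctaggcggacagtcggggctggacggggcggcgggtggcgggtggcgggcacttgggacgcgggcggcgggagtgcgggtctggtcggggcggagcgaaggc
In Mycn, which encodes the MYC family factor N-Myc (chr12:12941787-12942086, minus strand), capitals mark 3 E2F matches, of which 2 overlap, and 1 CHR match.
Mycn: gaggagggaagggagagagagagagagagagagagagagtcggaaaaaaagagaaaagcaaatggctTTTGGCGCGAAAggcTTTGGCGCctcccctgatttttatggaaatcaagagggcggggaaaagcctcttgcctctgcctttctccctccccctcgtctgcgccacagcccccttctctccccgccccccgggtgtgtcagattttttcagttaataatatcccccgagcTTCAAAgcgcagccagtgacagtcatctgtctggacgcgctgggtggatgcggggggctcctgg
In Ifit1, an antiviral gene that binds foreign RNA (chr19:34640639-34640938, plus strand), capitals mark 2 ISRE matches, which are TTTC and TTTC with 2 bases between.
Ifit1: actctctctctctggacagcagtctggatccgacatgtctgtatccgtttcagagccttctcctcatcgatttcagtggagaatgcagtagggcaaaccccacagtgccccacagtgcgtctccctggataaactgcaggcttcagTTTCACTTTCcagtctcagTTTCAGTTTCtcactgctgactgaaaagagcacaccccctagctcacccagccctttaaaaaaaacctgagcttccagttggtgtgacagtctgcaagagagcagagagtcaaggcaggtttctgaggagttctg
In Rsad2, which encodes the antiviral enzyme viperin (chr12:26456403-26456702, minus strand), capitals mark 1 ISRE match.
Rsad2: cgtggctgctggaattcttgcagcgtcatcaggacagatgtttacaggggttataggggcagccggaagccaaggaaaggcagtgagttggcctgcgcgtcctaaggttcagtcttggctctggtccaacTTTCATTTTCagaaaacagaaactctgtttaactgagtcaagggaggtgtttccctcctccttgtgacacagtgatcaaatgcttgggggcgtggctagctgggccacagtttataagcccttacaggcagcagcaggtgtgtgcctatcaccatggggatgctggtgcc
A promoter was found in that table for 10654 of the 13479 genes tested. Of these, 14.4% held a CHR match, 42.3% a CCAAT match, 4.70% an E2F match (TTTCCCGC, TTTGGCGC, TTTCGCGC or TTTGCCGC) and 3.83% an ISRE match, on either strand and with overlaps allowed. Here and below, a gene with several start sites counts as 1 promoter, with a match if any of its start sites held it. Over all 32851 promoters of the table the shares were 17.9%, 37.4%, 2.26% and 3.44%. These count each start site on its own, so they are not directly comparable. Such matches describe the sequence and show neither binding nor a cause.

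The 4 libraries at 500 nM held between 33576577 and 35968467 counts with 1 transcript per gene, and all 9 held between 27158143 and 48799962. A count of 0 in these 4 libraries allows up to 0.0834 to 0.0893 CPM, the usual count scaled to library size, for counting error only. The 10 genes with the most reads took 12.0% and 10.7% of the counts at 4 h and 8.26% and 8.20% at 24 h. Here and below, where 2 values are given for a time, the IL-2 library comes first and the IL-15 library second. Cd8a, which encodes CD8 alpha, measured 744 and 786 CPM at 4 h and 897 and 985 CPM at 24 h, and the 15 T cell identity genes summed to 4525 and 4845 CPM at 4 h and 5704 and 6070.4 CPM at 24 h. Markers of other spleen cells were present, and several sums were lower at 24 h. The 16 macrophage and monocyte markers summed to 231 and 159.7 CPM at 4 h and 57.0 and 41.1 CPM at 24 h, the 7 MHC class II presentation genes to 2251 and 2749.6 CPM at 4 h and 653 and 732 CPM at 24 h, and the 14 B cell markers to 436 and 448 CPM at 4 h and 281 and 347 CPM at 24 h. The 9 NK cell markers summed to 138 and 153 CPM at 4 h and 259 and 275 CPM at 24 h. They include Nkg7, given below among the cytotoxic effector genes, which was their only called rise, while 1 other marker fell. Of 9 granulocyte markers in the files, 3 were at 0 in all 4 libraries, and their sum was at most 2.03 CPM. In RNA from a mixed population, fewer cells of a type and less RNA per cell cannot be told apart, and the part of these cells in the results below was not tested.

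Between 4 h and 24 h at 500 nM 26.2% of the measured genes were called changed over the 2 cytokines together, with the same direction in both. Genes of DNA replication and mitosis were among the largest increases and interferon-stimulated genes among the largest decreases. Of 13479 genes tested, 3536 were called (26.2%), with 1797 higher at 24 h (13.3%) and 1739 lower (12.9%), at an adjusted p below 0.05 (edgeR's quasi-likelihood test, adjusted by Benjamini and Hochberg's method over all genes tested) and with the same direction in both cytokines. The requirement of the same direction removed 3 genes. It asks only for the same sign, and the change within a single cytokine was not tested. At least 2-fold was reached by 2211 of the called genes, and the median log2 fold change of all genes tested was -0.04. The spread in this test is how far the IL-2 and IL-15 libraries of the same dose and time differ after a common cytokine effect, and p-values rest on that spread alone, which may be technical. The count of calls was 1565 without the IL-2 24 h library, 1587 without the IL-15 24 h library and 2200 without the IL-15 4 h library.

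The matched pairs were also described without a test. In log2(CPM + 1), 897 genes (6.65%) were at least 2-fold higher at 24 h with both cytokines, 788 (5.85%) were at least 2-fold lower with both, and 7 (0.0519%) moved at least 2-fold in opposite directions. The differences had the same sign in both pairs for 10068 genes (74.7%), and the Pearson correlation between the pairs across genes was 0.805. That value describes 4 libraries, which share no library between pairs, and genes are not independent replicates. In the plot of the IL-15 pair against the IL-2 pair, replication and mitosis genes lie at the upper right and antiviral genes at the lower left.

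**Figure D1:**
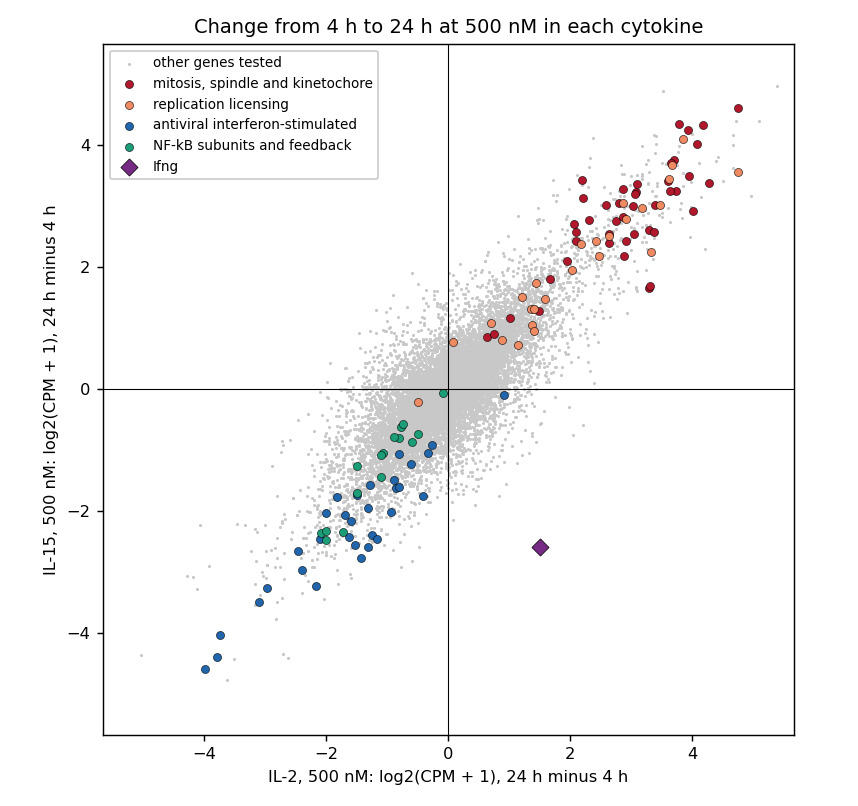
Each point is 1 of 13479 genes, with the difference in log2(CPM + 1) between 24 h and 4 h at 500 nM for IL-2 on the horizontal axis and IL-15 on the vertical axis. Members of 4 gene lists and Ifng are coloured. Mitosis and replication licensing members lie mostly at the upper right, antiviral interferon-stimulated genes mostly at the lower left, and Ifng rises with IL-2 and falls with IL-15.

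The gene lists of pathways and cell types, 44 in all, hold 1097 entries, of which 1066 were tested, and counts of members below are over those tested. Every such count at 500 nM stands beside 13.3% of all genes tested that rose and 12.9% that fell. Set beside the untreated library, the changed genes followed a few courses. A gene was classed as higher or lower at a time if both cytokines were at least 2-fold above or below untreated. All other genes were in the middle class, where a single cytokine could still lie beyond 2-fold. Of the 1797 genes that rose, 728 (40.5%) were in the middle class at 4 h and higher at 24 h. A further 776 (43.2%) were in the middle class at both times. Another 200 (11.1%) were lower at 4 h and in the middle class at 24 h. Of the 1739 genes that fell, 294 (16.9%) were higher at 4 h and in the middle class at 24 h, and 88 (5.06%) were higher at both times. A further 420 (24.2%) were in the middle class at 4 h and lower at 24 h. In the order given, the shares of all genes tested were 8.3%, 71% and 2.76% for the first 3 courses. They were 3.75%, 3.2% and 5.53% for the last 3. Class counts of called list members below stand beside the shares of called genes given here. Calling a gene by its change from 4 h to 24 h keeps it out of some classes, so the courses are partly set by that choice. These classes rest on 1 untreated library and carry no test.

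DNA replication genes were higher at 24 h, most of them several-fold. Of 26 genes that license and start replication origins, 24 rose and 0 fell (median log2 fold change 2.16), and of 33 genes of the replication fork and of deoxynucleotide supply, 29 rose and 0 fell (median 2.06). Beside these counts, 13.3% of all genes tested rose. Rrm2, the small subunit of ribonucleotide reductase, which makes the building blocks of DNA (NM_009104, chromosome 12), measured 29.6 CPM untreated, 11.9 and 16.0 CPM at 4 h and 541 and 534 CPM at 24 h. Both 24 h libraries lay above the untreated and both 4 h libraries. It rose by 5.25 ± 0.47 on the log2 scale (SE; adjusted p = 2.5e-05), a ratio of mean CPM of 38.5. The thymidine kinase gene Tk1 went from 3.03 and 6.13 CPM to 136 and 149 CPM (4.98 ± 0.49, adjusted p = 3.9e-05) and the thymidylate synthase gene Tyms from 1.51 and 4.03 CPM to 63.3 and 61.6 CPM (4.51 ± 0.50, adjusted p = 8.5e-05). Both supply thymidine nucleotides. Tyms-ps, listed as a pseudogene of Tyms, rose by 5.02 ± 0.61, but reads of such copies could be split between them, so its level is uncertain.

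Among the licensing genes, Cdc6, which loads the replicative helicase onto origins, rose by 4.66 ± 0.66 from 2.12 and 1.31 CPM to 43.8 and 38.7 CPM. Mcm10, Gins1 and Cdc45l, which start and drive that helicase, rose by 4.33 ± 0.71, 4.11 ± 0.59 and 3.22 ± 0.49. Gmnn, which encodes the licensing inhibitor geminin, rose with them by 3.54 ± 0.57, from 2.51 and 4.20 CPM to 38.1 and 41.3 CPM. Orc1l, the largest subunit of the origin recognition complex, rose by 3.89 ± 0.60, whereas Orc4l and Orc5l, other subunits of that complex, were not called, at -0.39 ± 0.34 and 0.44 ± 0.25. Uhrf1 and Chaf1a, which maintain DNA methylation and assemble chromatin behind the fork, rose by 3.97 ± 0.54 and 3.55 ± 0.39. In the fork group, Pold3 and Rfc3 were not called, at 0.57 ± 0.21 and 0.43 ± 0.35. Of the 24 licensing genes that rose, 17 were in the middle class at 4 h and at least 2-fold above untreated at 24 h. The middle class held 6 at both times. An E2F match was present in 47.6% of 21 licensing promoters and 27.6% of 29 fork promoters, against 4.70% of the promoters of all genes tested.

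Mitotic genes moved further. Of 44 genes of mitosis, the spindle and the kinetochore, 43 rose and 0 fell, with a median of 3.29, and their summed level went from 476 and 462 CPM at 4 h to 3259 and 3378 CPM at 24 h, against 429.9 CPM untreated. Of the 43, 41 were in the middle class at 4 h and at least 2-fold above untreated at 24 h. Mki67 (NM_001081117) measured 4.62 CPM untreated, 2.91 and 6.39 CPM at 4 h and 62.1 and 55.1 CPM at 24 h. The 4 h libraries lay on either side of the untreated value and the 24 h libraries far above it, and the rise was 3.65 ± 0.41 (adjusted p = 9.0e-05). Spc24 and Nuf2, subunits of the NDC80 complex that ties chromosomes to the spindle, rose by 5.73 ± 0.42 and 4.78 ± 0.71. Espl1, which encodes separase, the protease that releases sister chromatids, rose by 4.49 ± 0.46, and Birc5, which encodes survivin of the chromosomal passenger complex, by 4.54 ± 0.55. Esco2, which acetylates cohesin during S phase, had the largest rise among called genes with a mean of at least 20 CPM at the higher time, 6.34 ± 0.70, from 0.212 and 0.525 CPM to 30.8 and 31.2 CPM. Cenpm (centromere), Pbk (a mitotic kinase) and Ankle1 (a DNA nuclease) were also among the 15 largest rises. Cdc25c, the phosphatase that triggers mitotic entry, was not called, at 1.93 ± 1.18 from 1.18 and 1.28 CPM to 5.10 and 4.57 CPM. A CHR match was present in 69.4% of 36 mitosis promoters and a CCAAT match in 75.0%, against 14.4% and 42.3% of the promoters of all genes tested.

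Regulators of G1 and DNA repair genes changed in the same interval. Of 25 G1 cyclins, cyclin-dependent kinases and inhibitors, 14 rose and 3 fell. The activators E2f1 and E2f2 rose by 4.10 ± 0.49 and 3.43 ± 0.30, the first from 5.57 and 2.66 CPM to 68.7 and 63.9 CPM, and the repressors E2f7 and E2f8 by 5.10 ± 0.97 and 3.38 ± 0.64. Skp2, which targets the inhibitor p27 for degradation, rose by 2.64 ± 0.54 and Cdkn2c, which encodes the inhibitor p18, by 2.85 ± 0.45. Cdk6 was not called, at 0.62 ± 0.46. The calls that fell were fragile: 0 remained without the IL-15 4 h or the IL-15 24 h library, and 1 without the IL-2 24 h library. Of 23 homologous recombination and checkpoint genes, 15 rose and 0 fell (median 2.13). Clspn, which encodes the checkpoint adaptor claspin, rose by 4.40 ± 0.59 from 2.21 and 1.31 CPM to 32.9 and 36.7 CPM, and the repair genes Brca1, Bard1 and Exo1 rose by 2.66 ± 0.42, 3.31 ± 0.46 and 3.37 ± 0.50. Atm, the kinase that answers double-strand breaks, was not called, at 0.29 ± 0.45.

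Mycn was among the 15 largest rises. It measured 0.0323 CPM untreated, below the level of 3 counts, 0.606 and 0.350 CPM at 4 h and 39.7 and 23.3 CPM at 24 h, and rose by 6.08 ± 1.16 (adjusted p = 0.0024). Myc, the family member that drives growth in activated T cells, was higher at 4 h, with 1091 and 1169 CPM, than at 24 h, with 779 and 673 CPM, against 457 CPM untreated. Its decrease of 0.64 ± 0.19 (adjusted p = 0.028) was lost when any 1 of the 4 libraries was left out. Mxd1, which encodes a MYC antagonist, fell by 3.56 ± 0.35 from 258 and 461 CPM to 41.0 and 20.8 CPM.

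**Figure D2:**
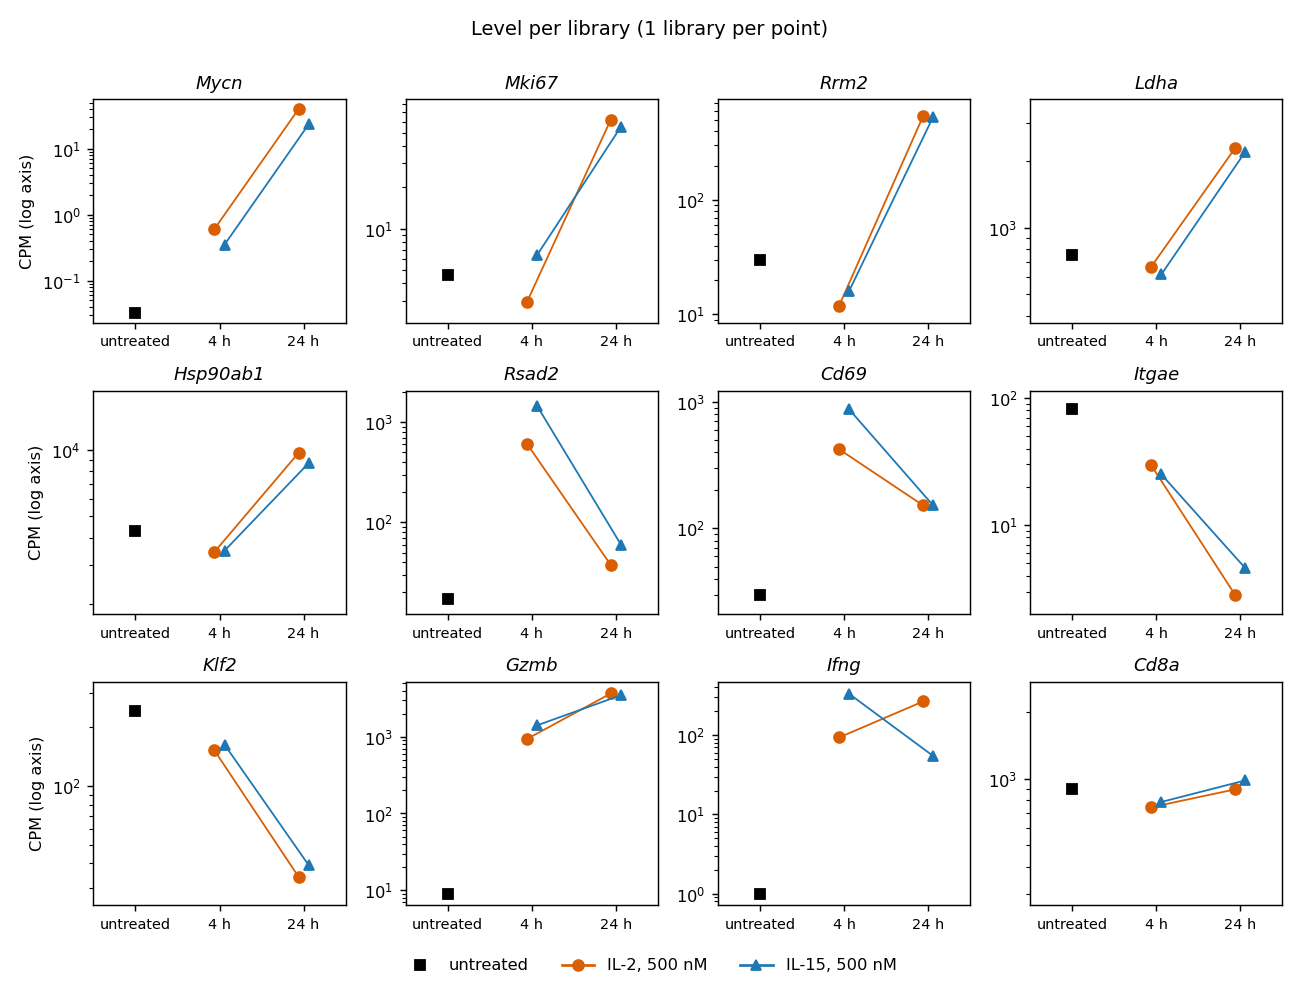
CPM on a log axis for 12 genes in the untreated library and in the 500 nM libraries at 4 h and 24 h, with 1 library per point and lines joining the libraries of a cytokine. The top row and Hsp90ab1 are higher at 24 h with both cytokines, Rsad2, Cd69, Itgae and Klf2 are lower with both, and Ifng moves in opposite directions.

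Metabolic genes rose in several pathways but not in all. Of 22 genes of glucose uptake and glycolysis, 13 rose and 1 fell (median 1.44), and their summed level went from 4009 and 4040.1 CPM to 11393 and 10739 CPM. Ldha, lactate dehydrogenase A, measured 753 CPM untreated, 668 and 617 CPM at 4 h and 2308 and 2219 CPM at 24 h, a rise of 1.82 ± 0.20 (adjusted p = 8.8e-05). Both 24 h values were above the untreated and both 4 h values. Tpi1 and Pgk1, enzymes of lower glycolysis, rose by 3.35 ± 0.22 and 1.90 ± 0.21, while Pfkp, a phosphofructokinase, was not called at 0.48 ± 0.21. Pfkfb4, which controls the phosphofructokinase step, was the member that fell, by 2.15 ± 0.43, a call lost without the IL-2 24 h library. Gapdh had 5.06 and 4.84 CPM at 4 h and 20.6 and 14.6 CPM at 24 h. It has many near-identical pseudogenes, and how reads with several matches were counted is not given in the sources used here, so its level is uncertain. Of 17 targets of the hypoxia factor HIF-1 outside glycolysis, 2 rose and 4 fell, beside 13.3% and 12.9% of all genes. Kdm3a, P4ha1 and Bnip3l fell by 1.34 ± 0.21, 1.14 ± 0.19 and 1.02 ± 0.18, the last a call lost without the IL-2 24 h library, which left 2 falls in the list. Higd1a rose by 1.90 ± 0.23 (the other rise was lost without the IL-2 4 h or the IL-2 24 h library), and Hif1a was not called, at -0.27 ± 0.23. A match to the letters ACGTG, read by HIF-1, was in 66.7% of 21 glycolysis promoters, 93.3% of 15 other HIF-1 target promoters and 28.8% of promoters of all genes tested.

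Called genes of nucleotide and lipid synthesis all rose. Of 22 genes of purine, pyrimidine and one-carbon synthesis, 17 rose and 0 fell (10 rose without the IL-15 24 h library). Cad, which starts pyrimidine synthesis, went from 84.9 and 74.2 CPM to 294 and 283 CPM (1.86 ± 0.18, adjusted p = 3.7e-05), and Gart, a purine enzyme, from 85.5 and 87.8 CPM to 315 and 275 CPM (1.77 ± 0.22). The cytosolic folate enzymes Shmt1 and Mthfd1 rose by 2.15 ± 0.47 and 1.83 ± 0.29. Their mitochondrial counterparts Shmt2 and Mthfd2 were not called, at 0.48 ± 0.23 and -0.08 ± 0.29, and Mthfd2 was already at 615 and 419.5 CPM at 4 h against 145 CPM untreated. Of 29 cholesterol and fatty acid synthesis genes, 13 rose and 0 fell (7 rose without the IL-15 24 h library). Fdps and Lss of the cholesterol pathway rose by 1.60 ± 0.23 and 1.59 ± 0.31, and the desaturase Scd2 by 1.98 ± 0.24, from 18.6 and 17.5 CPM to 76.4 and 66.5 CPM. Srebf2, the factor that controls the pathway, and Acly, which supplies acetyl-CoA, were not called, at 0.23 ± 0.18 and 0.27 ± 0.17. Gcat, a mitochondrial enzyme of threonine and glycine breakdown and one of the 15 largest rises, went from 4.24 and 1.11 CPM to 59.4 and 61.8 CPM.

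Amino acid genes had calls in both directions. Of 23 genes of amino acid transport and ATF4, the factor of the amino acid response, 3 rose and 6 fell, beside 13.3% and 12.9% of all genes, and 5 of the 6 that fell were at least 2-fold above untreated at both times. Slc1a4, a neutral amino acid transporter, fell by 1.94 ± 0.35, from 38.8 and 22.4 CPM to 7.59 and 7.74 CPM, against 2.52 CPM untreated. Phgdh, the first enzyme of serine synthesis, and the glutamine carrier Slc38a1 rose by 1.28 ± 0.26 and 1.11 ± 0.20. Atf4 itself and Slc3a2, the common chain of amino acid exchangers, were not called, at -0.30 ± 0.20 and -0.29 ± 0.17. Without the IL-15 24 h library 1 fall remained, and without any 1 of the other 3 libraries 4 or 5. Leaving out any 1 of the 4 left 2 rises. Of 20 cytosolic tRNA synthetases, 4 rose and 2 fell, but 1 or 2 rises and 0 or 1 fall remained when any 1 of the 4 libraries was left out. Kars, the lysine synthetase, rose by 1.01 ± 0.18 with all libraries, a call kept in every such fit. Of all genes tested, 26.2% were called in either direction.

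Called genes of ribosome assembly rose, and called cytosolic ribosomal protein genes mostly fell. Of 34 genes of ribosome biogenesis and RNA polymerase I, 26 rose and 0 fell (median 0.96), with 13, 12 and 16 rises without the IL-2 4 h, IL-2 24 h and IL-15 24 h libraries. Nolc1 and Rrp12, which help to build ribosomal subunits, rose by 1.44 ± 0.21 and 1.44 ± 0.22, and Polr1b, a subunit of RNA polymerase I, by 1.42 ± 0.28, from 35.0 and 29.9 CPM to 82.5 and 90.9 CPM. Of 79 cytosolic ribosomal protein genes, 1 rose and 31 fell (median -0.48), beside 12.9% of all genes tested that fell. Their summed level was 107156 and 101769 CPM at 4 h and 75248 and 75295 CPM at 24 h, against 123019 CPM untreated, and the share of counts in the 10 genes with the most reads was lower at 24 h too (8.26% and 8.20% against 12.0% and 10.7%). Rps21 fell by 1.65 ± 0.30 from 766 and 919.7 CPM to 177 and 402 CPM and Rps28 by 2.21 ± 0.31, whereas Rpl8 and Rpl4, at -0.22 ± 0.21 and -0.54 ± 0.19, were not called. No rise remained without any 1 of the 4 libraries, and the falls numbered 20, 7 and 12 without the IL-15 4 h, IL-2 24 h and IL-15 24 h libraries, and ribosomal protein genes have many pseudogene copies that could share their reads. Of 75 mitochondrial ribosomal protein genes, 34 rose and 0 fell (median 0.71), with 21, 22, 12 and 16 rises without the IL-2 4 h, IL-15 4 h, IL-2 24 h and IL-15 24 h libraries. Mrpl12 rose by 1.83 ± 0.24 from 144 and 121 CPM to 499 and 438 CPM.

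Called genes of the respiratory chain, the tricarboxylic acid cycle and the proteasome all rose. Of 73 respiratory chain genes encoded in the nucleus, 27 rose and 0 fell (median 0.51), with Atp5g1 of the ATP synthase at 1.57 ± 0.23 and Ndufs6 of complex I at 1.09 ± 0.22. Their rises numbered 12, 4 and 7 without the IL-2 4 h, IL-2 24 h and IL-15 24 h libraries. Of 17 tricarboxylic acid cycle genes, 7 rose and 0 fell (4 without the IL-2 24 h library), among them Idh2 at 1.58 ± 0.20, from 55.2 and 39.4 CPM to 140.2 and 141 CPM, against 262 CPM untreated. Idh2 was thus below its untreated level at both times. Of 37 proteasome subunits, 19 rose and 0 fell (median 0.66), but 4, 4 and 6 rose without the IL-2 4 h, IL-2 24 h and IL-15 24 h libraries. Psmd3 and Psmd5 of the regulatory particle rose by 1.15 ± 0.19 and 1.06 ± 0.18 with all libraries, calls kept in every such fit.

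Most called chaperone genes rose. Of 23 ER chaperone and unfolded protein response genes, 12 rose and 1 fell (7 rises without the IL-2 24 h library, 0 falls without the IL-15 24 h library), led by Sdf2l1, an ER stress gene, which went from 18.1 and 22.1 CPM to 269 and 191 CPM (3.46 ± 0.37, adjusted p = 7.1e-05). P4hb, which forms disulfide bonds, and the lectin chaperone gene Canx rose by 1.13 ± 0.18 and 1.41 ± 0.26. Hspa5, the main ER chaperone, was not called, at -0.06 ± 0.21, and had 699 and 977 CPM at 4 h against 289.8 CPM untreated. Of 22 heat shock chaperone genes, 11 rose and 2 fell (7 rises without the IL-15 24 h library, 1 fall without the IL-15 4 h library). Hsp90ab1, the constitutive HSP90, measured 4296 CPM untreated, 3448 and 3493 CPM at 4 h and 9684 and 8700.1 CPM at 24 h. Its rise was 1.40 ± 0.18 (adjusted p = 2.1e-04), and the mitochondrial chaperone Hspd1 rose by 1.70 ± 0.22. Hspa1a, the stress-induced HSP70, fell by 3.04 ± 0.45 from 16.2 and 18.6 CPM to 2.66 and 1.81 CPM, while Dnajb1 and Dnaja1, HSP40 partners, were not called at 0.01 ± 0.18 and -0.01 ± 0.25.

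The plot of list members called shows where each group lay against all genes tested.

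**Figure D3:**
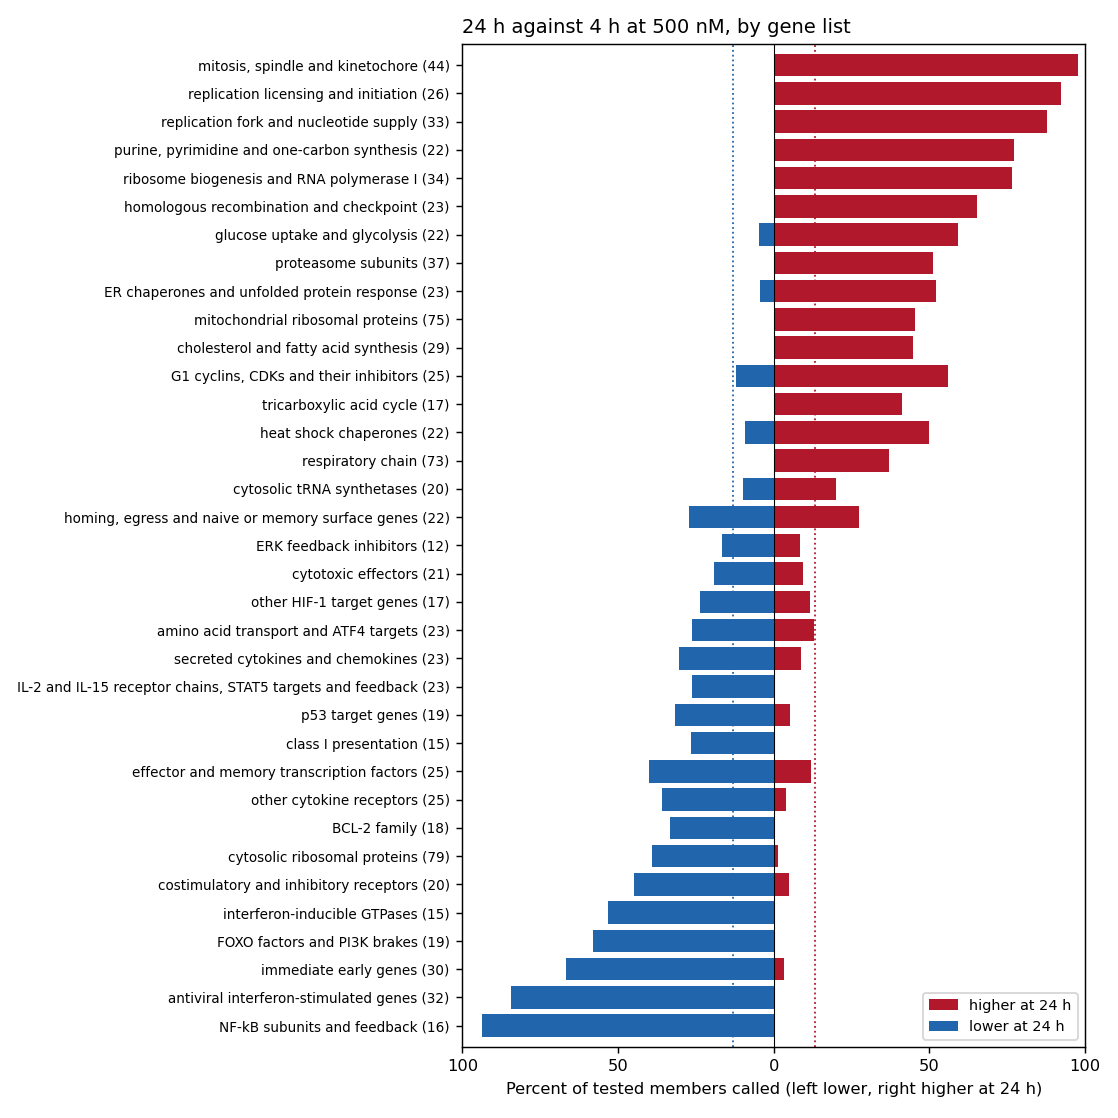
Percent of tested members of 35 pathway lists called higher (right, red) or lower (left, blue) at 24 h than at 4 h, with the number tested in brackets. Dotted lines mark the shares of all 13479 genes tested, 13.3% higher and 12.9% lower. The mitosis and replication lists extend furthest to the right, and the NF-kB and antiviral lists furthest to the left.

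Most early response genes fell. Of 30 immediate early genes, 1 rose and 20 fell (median -1.55), beside 12.9% of all genes that fell. Fos, a subunit of AP-1, measured 36.3 CPM untreated, 84.2 and 70.6 CPM at 4 h and 11.5 and 8.49 CPM at 24 h. Both 24 h libraries lay below the untreated value as well as below both 4 h libraries, and the fall was 2.96 ± 0.23 (adjusted p = 1.9e-05). Of the 20 that fell, 8 were in the middle class at 4 h and at least 2-fold below untreated at 24 h. With both cytokines, 5 were at least 2-fold above untreated at 4 h only, and 3 at both times. Atf3, a stress-induced factor, fell by 3.09 ± 0.26 from 128 and 102 CPM to 13.5 and 13.6 CPM, and Nr4a1, a marker of recent receptor signalling, by 2.40 ± 0.21. Fosl2, another AP-1 subunit, and Btg2, which restrains proliferation, fell by 2.27 ± 0.28 and 1.90 ± 0.20, while Jund and the phosphatase gene Dusp1 were not called, at 0.20 ± 0.24 and -0.11 ± 0.25. A list of 12 feedback genes held 9 DUSP, Sprouty and Spred genes, which inhibit ERK signalling, and 3 Rgs genes, which regulate G-protein signalling. Of the 9, 1 rose, a call lost when any 1 of the 4 libraries was left out, and 0 fell. Of the 3, Rgs2 and Rgs1 fell, at -1.74 ± 0.33 and -3.60 ± 0.47.

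All but 1 of the NF-kB genes were lower at 24 h: of 16 subunits and feedback inhibitors, 0 rose and 15 fell (median -1.15). Without the IL-2 24 h library 8 falls remained, and 8 without the IL-15 24 h library. Tnfaip3, which encodes the inhibitor A20, measured 48.4 CPM untreated, 134 and 168 CPM at 4 h and 32.7 and 29.6 CPM at 24 h (-2.28 ± 0.23, adjusted p = 4.4e-05). The 4 h values were above the untreated value and the 24 h values below it. Nfkbiz and Bcl3, nuclear partners of NF-kB, fell by 2.24 ± 0.20 and 2.19 ± 0.27, the subunit gene Relb by 1.61 ± 0.17, and Birc3, an inhibitor of cell death, by 2.06 ± 0.21. Nfkbib was the member not called, at -0.08 ± 0.22. Of the 15 that fell, 7 were at least 2-fold above untreated at 4 h and in the middle class at 24 h.

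Antiviral interferon-stimulated genes included 4 of the 15 largest falls, Rsad2, Mx2, Mx1 and Ifit1. Of 32 such genes, 0 rose and 27 fell (median -1.94). Their summed level was 13091 and 22700.5 CPM at 4 h and 4882 and 6048 CPM at 24 h, against 1964 CPM untreated. Rsad2 (NM_021384, chromosome 12) measured 17.1 CPM untreated, 612 and 1465 CPM at 4 h and 37.5 and 60.1 CPM at 24 h. The IL-15 library was the higher at both times, and the lower 4 h value was still above the higher 24 h value. Rsad2 fell by 4.37 ± 0.33 (adjusted p = 1.9e-05). Ifit1 went from 845 and 1689 CPM to 97.0 and 149.5 CPM (-3.35 ± 0.33, adjusted p = 4.0e-05), Mx1 from 243 and 589 CPM to 17.2 and 35.2 CPM and Cmpk2 from 437 and 802 CPM to 54.5 and 83.3 CPM (-3.15 ± 0.24). Ifih1, which encodes the RNA sensor MDA5, fell by 2.86 ± 0.38. Zbp1, a nucleic acid sensor, was not called, at -0.74 ± 0.42, with 487 and 882 CPM at 4 h and 388 and 427 CPM at 24 h. All 27 that fell were at least 2-fold above untreated at 4 h, and 16 of them still were at 24 h. An ISRE match was present in 61.9% of 21 antiviral promoters, against 3.83% of the promoters of all genes tested.

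The interferon-inducible GTPases, which attack vacuoles that hold microbes, gave a less stable result. Of 15, 0 rose and 8 fell (median -1.24), but DESeq2 called 1, and 0, 1 and 2 were called without the IL-15 4 h, IL-2 24 h and IL-15 24 h libraries. Gbp5 fell by 2.28 ± 0.44, from 19.1 and 36.8 CPM to 5.84 and 5.58 CPM, a call lost without the IL-15 4 h library. Igtp and Irgm2 were not called, at -1.05 ± 0.45 and -1.06 ± 0.46, although both had values at 24 h below both at 4 h (2584 and 2738 CPM against 5374 and 5665 CPM for Igtp). An ISRE match was in 90.9% of 11 of their promoters. Of 15 class I presentation genes, 0 rose and 4 fell (1 without any 1 of the IL-15 4 h, IL-2 24 h and IL-15 24 h libraries). Nlrc5, the activator of class I genes, fell by 1.49 ± 0.22 with all libraries, a call kept in every such fit. It went from 859 and 1046 CPM to 320.05 and 359 CPM. H2-K1 was not called, at -0.40 ± 0.18. Of all genes tested, 26.2% were called in either direction.

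Among 23 genes of the receptor chains of the 2 cytokines and of STAT5 targets and inhibitors, 0 rose and 6 fell, beside 26.2% of all genes called in either direction, and 2, 2 and 1 fell without the IL-15 4 h, IL-2 24 h and IL-15 24 h libraries. Il2ra, the alpha chain that gives IL-2 high affinity, measured 1.65 CPM untreated, 35.9 and 45.5 CPM at 4 h and 88.8 and 61.5 CPM at 24 h, and was not called (0.79 ± 0.59, adjusted p = 0.38). Il2rb, the shared beta chain, had 1096 and 1008 CPM at 4 h and 891 and 869.5 CPM at 24 h and was not called (-0.25 ± 0.19). Stat5b fell by 1.10 ± 0.20, from 245 and 277 CPM to 118 and 125 CPM, in every fit that left out 1 library. Lif and Lta, cytokine genes of this pathway, were not called at -0.06 ± 0.40 and -0.53 ± 0.45. Socs3, a feedback inhibitor, fell by 1.28 ± 0.24, a call lost without the IL-15 24 h library. In the wider group of 25 other cytokine receptor chains, 1 rose (0 without the IL-2 4 h or the IL-15 24 h library) and 9 fell. Ifngr1, the ligand-binding chain for interferon gamma, fell by 1.78 ± 0.18 from 2559.6 and 2294 CPM to 713 and 699 CPM, Il6st, the common chain of the IL-6 family, by 1.92 ± 0.27, and Il1r2, the decoy receptor for IL-1, by 4.94 ± 0.69 from 7.85 and 6.54 CPM to 0.227 and 0.237 CPM. Il4ra was not called, at -0.01 ± 0.22.

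Effector genes were called about as often as genes in general. Of 21 cytotoxic effector genes, 2 rose (1 without the IL-2 4 h or the IL-2 24 h library) and 4 fell, beside 26.2% of all genes called in either direction. Their summed level was 2639.6 and 3635 CPM at 4 h and 5351 and 5115 CPM at 24 h. Gzmb, the protease granzyme B, measured 8.88 CPM untreated, 934 and 1409 CPM at 4 h and 3683 and 3489.7 CPM at 24 h. Both 24 h values lay above both 4 h values, but the difference was not called (1.56 ± 0.67, adjusted p = 0.11). Prf1, the pore-forming protein perforin, was not called at 0.01 ± 0.18. Nkg7, a cytotoxic granule gene, rose by 1.06 ± 0.22 and Srgn, the granule proteoglycan serglycin, fell by 1.72 ± 0.23 from 435 and 598 CPM to 151 and 163 CPM. Srgn was the only fall left without the IL-15 4 h, the IL-2 24 h or the IL-15 24 h library. Of 23 secreted cytokine and chemokine genes, 2 rose (1 without the IL-15 24 h library) and 7 fell. Xcl1, which attracts dendritic cells, rose by 1.76 ± 0.32, while Ccl5, a chemokine of memory and effector T cells, fell by 2.41 ± 0.22 from 139 and 196 CPM to 33.7 and 29.1 CPM and Csf1, the macrophage growth factor, by 3.87 ± 0.59. Cxcl10 and Cxcl9, chemokines induced by interferon, fell by 4.38 ± 0.68 and 3.51 ± 0.53, Cxcl10 from 563 and 1261 CPM to 44.6 and 45.6 CPM. Macrophages also make these 2 chemokines, and the macrophage marker sums were 231 and 159.7 CPM at 4 h and 57.0 and 41.1 CPM at 24 h. Their part in the chemokine values was not tested.

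Transcription factors and surface genes of resting and memory cells gave a mixed result. Of 25 effector and memory transcription factors, 3 rose (1 without the IL-15 4 h, the IL-2 24 h or the IL-15 24 h library) and 10 fell (6 and 5 without the IL-2 24 h and IL-15 24 h libraries). Klf2, which maintains quiescence and homing genes, measured 242 CPM untreated, 152 and 162 CPM at 4 h and 34.2 and 39.2 CPM at 24 h, a fall of 2.10 ± 0.18 (adjusted p = 2.0e-05). Its levels went down from untreated to 4 h to 24 h with both cytokines. Bach2, Zeb1 and Myb, which take part in memory and effector programmes, fell by 1.58 ± 0.23, 2.17 ± 0.32 and 1.84 ± 0.35. Tcf7 and Lef1, factors of naive cells, were not called, at 0.10 ± 0.20 and -0.28 ± 0.20. Tcf7 stood at 318 and 319.9 CPM at 4 h and 331 and 352 CPM at 24 h, all below 1912 CPM untreated. Of 22 homing, egress and surface genes, 6 rose and 6 fell, with 2, 3 and 1 rises left without the IL-2 4 h, IL-2 24 h and IL-15 24 h libraries. Itgae, the CD103 integrin chain, fell by 2.90 ± 0.31, from 29.5 and 25.0 CPM to 2.80 and 4.57 CPM, the egress receptor gene S1pr1 by 1.34 ± 0.21 and Il7r, the receptor chain for the survival cytokine IL-7, by 1.84 ± 0.28. Cxcr3, a receptor that leads T cells to inflamed tissue, rose by 1.57 ± 0.22, and Cd27 was not called, at 0.04 ± 0.17.

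Most called activation receptors and brakes on growth fell. Of 20 costimulatory and inhibitory receptors, 1 rose (0 without the IL-15 24 h library) and 9 fell (5, 5 and 4 falls without the IL-15 4 h, IL-2 24 h and IL-15 24 h libraries). Cd69, an early activation marker that holds cells in tissue, measured 29.5 CPM untreated, 423 and 873 CPM at 4 h and 152 and 152 CPM at 24 h (-2.12 ± 0.38, adjusted p = 0.0015), and Cd83 fell by 2.83 ± 0.24. Tnfrsf9, the 4-1BB receptor, was not called, at 0.50 ± 0.44. Of 19 FOXO factors and brakes on PI3K signalling and growth, 0 rose and 11 fell (7, 6 and 7 without the IL-15 4 h, IL-2 24 h and IL-15 24 h libraries). Tsc22d3, the glucocorticoid-induced leucine zipper, fell by 2.14 ± 0.25, Btg1, which restrains proliferation, by 1.92 ± 0.18, Slfn2, which maintains quiescence, by 1.60 ± 0.22 and Txnip, which limits glucose uptake, by 1.27 ± 0.20. Foxo1 was not called, at -0.19 ± 0.17, with 116 and 112 CPM at 4 h and 101 and 98.4 CPM at 24 h. Of the 11 that fell, 7 were in the middle class at 4 h and at least 2-fold below untreated at 24 h.

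Of 18 BCL-2 family genes, which set the threshold for cell death, 0 rose and 6 fell, beside 13.3% and 12.9% of all genes. Both survival and death genes were among them: Mcl1, a survival gene, fell by 1.28 ± 0.21 from 378 and 409 CPM to 161 and 161 CPM, and the death genes Bcl2l11 (BIM) and Pmaip1 (NOXA) by 1.39 ± 0.21 and 2.87 ± 0.46. Bcl2 and Bcl2l1, survival genes, were not called, at -0.54 ± 0.34 and 0.65 ± 0.25. Bcl2a1a and its near-identical copies Bcl2a1b and Bcl2a1d fell by 1.37 ± 0.22, 1.16 ± 0.21 and 1.27 ± 0.22, and reads could be split among these copies. The Bcl2a1b call was lost without the IL-15 24 h library. Of 19 genes that the tumour suppressor p53 can activate, 1 rose and 6 fell, beside 13.3% and 12.9% of all genes. The death receptor gene Fas fell by 1.94 ± 0.27, from 44.8 and 44.1 CPM to 9.72 and 13.5 CPM, and Gadd45a, which halts the cell cycle on damage, by 2.27 ± 0.36. Mdm2, the feedback inhibitor of p53, was not called, at -0.53 ± 0.19. Gdf15, a stress cytokine that p53 and ATF4 can induce, had the largest fall among called genes with a mean of at least 20 CPM at the higher time, -6.35 ± 0.57, from 54.2 and 24.9 CPM to 0.680 and 0.267 CPM, with 1.52 CPM untreated.

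Called markers of macrophages, dendritic cells, B cells and erythroid cells fell more often than they rose, as did MHC class II genes. Of all genes tested, 13.3% rose and 12.9% fell. Of 16 macrophage and monocyte markers, 1 rose and 8 fell (median -2.58). Csf1r, the receptor for the macrophage growth factor, went from 24.0 and 14.8 CPM to 2.46 and 1.10 CPM, against 338 CPM untreated (-3.44 ± 0.41), and the complement genes C1qa and C1qb fell by 3.33 ± 0.32 and 3.43 ± 0.42. Fcna, a complement lectin of macrophages, fell by 4.61 ± 0.41, from 37.9 and 18.7 CPM to 0.992 and 1.36 CPM. Of 7 MHC class II presentation genes, 0 rose and 5 fell, H2-Ab1 from 738 and 904 CPM to 185 and 166 CPM (-2.24 ± 0.21). Of 14 B cell markers, 0 rose and 4 fell (0 without the IL-2 24 h library and 2 without the IL-15 24 h library), while Cd79a and Cd79b of the B cell receptor were not called, at -0.50 ± 0.18 and -0.36 ± 0.18. Of 9 dendritic cell markers, 1 rose (0 without the IL-2 4 h or the IL-2 24 h library) and 4 fell (2, 2, 2 and 1 without the IL-2 4 h, IL-15 4 h, IL-2 24 h and IL-15 24 h libraries). Of 7 erythroid markers, 0 rose and 4 fell, all of them globin genes whose pairs share counts (Hba-a1 at -3.72 ± 0.35). Of 9 NK cell markers, 1 rose and 1 fell (0 without the IL-2 4 h or the IL-2 24 h library), and 0 of 6 CD4+ and regulatory T cell markers and 0 of 4 granulocyte markers were called. T cell identity genes, 15 in all, gave 3 rises and 1 fall, beside 26.2% of all genes called in either direction. The rises included Cd5 at 1.84 ± 0.22 and Lat, an adaptor of the T cell receptor, at 1.28 ± 0.21. The fall and 1 of the rises depended on single libraries, since 2 rises and 0 falls remained without the IL-15 4 h, the IL-2 24 h or the IL-15 24 h library.

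The same interval at 1 nM, in 4 other libraries, gave far fewer calls. There 390 genes were called (2.89%), 204 higher at 24 h (1.51%) and 186 lower (1.38%). The difference between the doses was tested in the same fit: for 1188 genes (8.81%) the change from 4 h to 24 h differed between 500 nM and 1 nM, being more positive at 500 nM for 547 (4.06%) and more negative for 641 (4.76%). Of the 3536 genes called at 500 nM, 1045 were also called in that test, and for 1044 of these the difference, 500 nM minus 1 nM, had the sign of the change at 500 nM. Both tests hold the same 500 nM libraries, so this agreement is largely built in and is no further evidence. Of genes called at both doses, 232 moved in the same direction and 20 in opposite directions. Calls at 1 nM numbered 73 without the IL-2 4 h library of that dose, 102 without its IL-15 4 h library and 186 without its IL-2 24 h library. The difference between the doses was called for 356, 369 and 602 genes without the IL-15 24 h, IL-2 24 h and IL-15 4 h libraries at 500 nM, and for 400 and 781 without the IL-15 4 h and IL-15 24 h libraries at 1 nM.

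Cell cycle lists differed by dose, and NF-kB genes passed the test of a difference about as often as genes in general. The change was more positive at 500 nM for 19 of 26 licensing genes, 24 of 33 fork genes and 26 of 44 mitosis genes. Of all genes tested, 4.06% were more positive, and these lists had medians at 1 nM of 0.24, 0.26 and 0.76. Mki67 had 8.37 and 5.02 CPM at 4 h and 7.38 and 6.41 CPM at 24 h with 1 nM, a change of 0.04 ± 0.37, and the difference between doses was 3.61 ± 0.55 (adjusted p = 0.0035). For NF-kB genes the medians were -1.15 at 500 nM and -1.01 at 1 nM. The difference passed the test for 1 of 16, beside 8.81% of all genes tested. Tnfaip3 fell at 1 nM as well, by 2.36 on the log2 scale, and the difference between doses was 0.08 ± 0.31 (adjusted p = 0.95), which does not show that the changes were equal. Immediate early genes had medians of -1.55 and -1.21. Of 30, 7 were more negative and 1 more positive at 500 nM, beside 4.76% and 4.06% of all genes. Antiviral genes had medians of -1.94 and -0.42, and 13 of 32 were more negative at 500 nM, beside the same 4.76%. Hspa1a fell at both doses, by 3.04 and 3.58.

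Markers of macrophages went in opposite directions at the 2 doses. At 1 nM 7 of 16 rose and 0 fell (median 1.52), beside 1.51% of all genes that rose there. Their sums went from 340.2 and 305 CPM at 4 h to 936 and 1136 CPM at 24 h. For 11 of 16 the change was more negative at 500 nM, beside 4.76% of all genes. Lyz2, lysozyme of macrophages, had 21.8 and 20.7 CPM at 4 h and 138 and 217 CPM at 24 h with 1 nM. With 500 nM it had 18.6 and 23.7 CPM at 4 h and 2.04 and 2.82 CPM at 24 h. It rose at 1 nM (3.02 ± 0.24) and fell at 500 nM (-3.13 ± 0.25), a difference between the changes of -6.14 ± 0.34 (adjusted p = 5.4e-06), and reads could be shared with its near-identical copy Lyz1. Cd5l, a secreted macrophage protein, also rose at 1 nM, from 29.3 and 28.1 CPM to 285 and 366 CPM, and fell at 500 nM, from 15.7 and 13.9 CPM to 4.82 and 3.15 CPM.

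**Figure D4:**
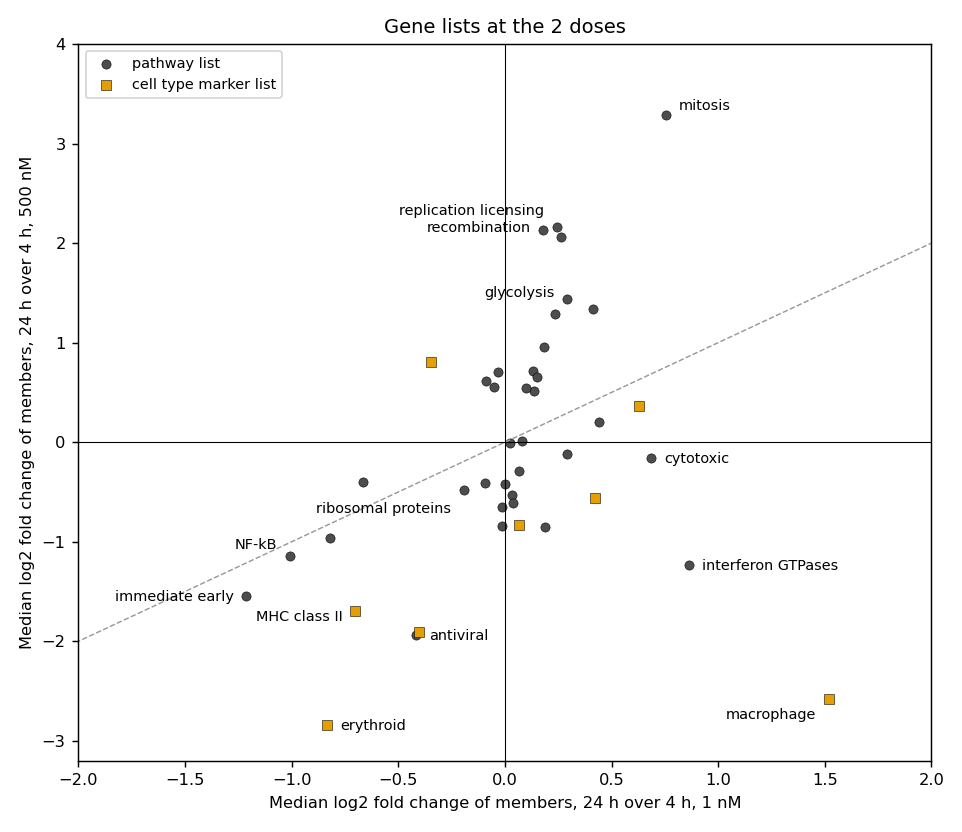
Median log2 fold change from 4 h to 24 h of the members of each gene list with at least 5 tested members, at 1 nM (horizontal) and 500 nM (vertical). Circles are pathway lists and squares cell type marker lists, and the dashed line marks equal medians. Mitosis and replication lists lie far above the line, interferon and macrophage lists below it, and NF-kB near it.

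The 2 cytokines were compared last. A test of whether the change from 4 h to 24 h differed between IL-2 and IL-15, over both doses, called 0 of 13479 genes (0%) with edgeR, where the smallest adjusted p was 1, and 525 genes had an unadjusted p below 0.05. Where no gene differs, such a cut-off on average passes more genes than 525. DESeq2 called 0 and limma-voom 1. Among genes given a known difference in simulated counts, this test found 6 of 100 at 2-fold and 67 of 100 at 8-fold, so a small difference would mostly be missed. Of the 7 genes that moved at least 2-fold in opposite directions at 500 nM, 1 had at least 20 CPM, the interferon gamma gene Ifng. With IL-2 it went from 93.1 CPM at 4 h to 265 CPM at 24 h, and with IL-15 from 331 CPM to 54.5 CPM, against 1.00 CPM untreated. The values at 4 h and 24 h overlapped between the times, and Ifng was not called (-1.05 ± 0.76, adjusted p = 0.36). Without the IL-15 4 h library its fitted change was 1.43 (adjusted p = 0.014), an increase that rests on IL-2 at 4 h and both libraries at 24 h.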

How the data were processed

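The series holds 9 RNA-seq libraries, each from pooled RNA of 3 samples, and 1 library per condition. The cDNA was amplified in several rounds of PCR, per the labels' protocols. Bases were called with CASAVA 1.8 and reads aligned with Bowtie 0.12.4 to mm8, per the submitters' processing notes. The deposited tables give, per the file headers, a count of reads per RefSeq transcript, its exon length and an RPKM value. The authors' RPKM was read as the count divided by exon length and by 1 total per library. That total was estimated as a median over transcripts with many counts. How strand and reads with several matches were treated is not given in the sources used here. Counts alone were tested, and RPKM was not.

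From 24373 transcripts, 1 was kept for each of 20418 symbols, that with the most counts on average, and 43 genes share their counts with another gene. Genes passing edgeR's filterByExpr (minimum count 10, minimum total 15) numbered 13479. After TMM scaling, edgeR 4.0.16 (R 4.3.3) fitted dose and time as 5 groups plus a cytokine term over all 9 libraries by quasi-likelihood, with 3 residual degrees of freedom. The contrasts were 24 h against 4 h at 500 nM, the same at 1 nM, and their difference, and a cytokine-by-time term was tested in a second fit. SE is the log2 fold change divided by the square root of its F statistic, and adjusted p-values are Benjamini-Hochberg values over all genes tested. DESeq2 1.42.0 and limma-voom (limma 3.58.1) were alternatives, with other scalings, filters and sets of libraries. In simulated counts over 13479 genes, the 500 nM contrast found 31 of 100 genes changed 2-fold, 78 of 100 changed 8-fold, and called 12 of 13279 unchanged genes. The simulation used the fitted spread, no cytokine effect and far fewer changed genes than the 3536 called here. Its rates may not hold for these data. No 2 libraries were duplicates. The lowest mean chi-square per gene was 26.6, between the IL-2 and IL-15 libraries at 24 h and 500 nM. Between the IL-2 and IL-15 libraries at 4 h and 500 nM it was 97.2. The fit used 1 spread per gene for all groups, so the SE does not show this difference.

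Named genes were, among called genes with at least 20 CPM at the higher time, the 15 largest rises and 15 largest falls, up to 6 called and 2 uncalled members per list, the largest differences between doses, genes in opposite directions, and 11 fixed genes. A few of them are not reported here. The members and lists were chosen with earlier results of these data known. The upper limits in CPM for genes without reads cover counting error only, and PCR copies were not marked. The SE values also carry the fitted spread between libraries of the same dose and time.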

Additional observations from a re-analysis of the deposited data

Results flagged for a closer look

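Among the 1188 genes whose change from 4 h to 24 h differed between the doses, by the test of the difference itself, those described here had the largest differences or were called in opposite directions. Values below are the log2 fold change at 500 nM minus that at 1 nM.

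The largest positive differences were in cell cycle genes: Esco2 4.79, the cell cycle kinase Melk 4.52, Spc24 4.37, the repair gene Brca1 3.89, Cep55, which acts in cell separation, 3.85, Cenpm 3.84, Tyms-ps 3.81 and Prc1, which bundles spindle fibres, 3.80. Melk had 3.24 and 2.13 CPM at 4 h and 37.5 and 34.6 CPM at 24 h with 500 nM. With 1 nM it had 5.06 and 4.60 CPM at 4 h and 5.05 and 1.43 CPM at 24 h.

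The largest negative differences were mostly in genes of macrophages: Lyz2 -6.14, Lyz1 -5.87, the iron exporter Slc40a1 -5.56, Cd5l -5.41, C1qa -5.00, C1qb -4.61 and C1qc -4.44. Gdf15 differed by -6.13.

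Other genes were called in opposite directions at the 2 doses. Those lower at 24 h with 500 nM and higher with 1 nM were Slc14a1 (-3.93), Tmem106a (-3.87), Cyp2s1 (-3.68), Cd7 (-3.56), Pla2g7 (-3.38), Sirpa (-3.18), Fam26f (-3.09), Lrrc61 (-2.61), Inpp1 (-2.19), Lgals3 (-2.09), Hcst (-1.86), Thada (-1.73) and Evl (-1.71). The fall at 500 nM was lost for Pla2g7 without the IL-2 4 h or the IL-15 24 h library, for Sirpa without the IL-2 4 h, IL-2 24 h or IL-15 24 h library, and for both with limma-voom. It was lost for Hcst without either 24 h library, and for Thada and Evl without the IL-15 4 h, IL-2 24 h or IL-15 24 h library. For the genes of this paragraph, whether the call at 1 nM held without 1 library of that dose was not checked. Cd7, a surface protein of T and NK cells, had 11.8 and 13.9 CPM at 4 h and 2.66 and 4.87 CPM at 24 h with 500 nM. With 1 nM it had 26.2 and 29.7 CPM at 4 h and 91.9 and 96.6 CPM at 24 h. Sh2d2a, which encodes a T cell adaptor, went the other way, with a difference of 1.52, but its rise at 500 nM was lost without the IL-2 4 h, IL-2 24 h or IL-15 24 h library. The summed macrophage markers moved with these genes, from 231 and 159.7 to 57.0 and 41.1 CPM at 500 nM and from 340.2 and 305 to 936 and 1136 CPM at 1 nM, and their part in these differences was not tested.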

How the results depend on the processing

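The 3536 calls at 500 nM became 3999 with DESeq2, 3529 with limma-voom, 3526 and 3551 with other scalings, 3556 without the filter, 3816 without the cytokine term and 4496 with the 4 libraries at 500 nM alone. A further demand of 2-fold left 2211, and of 2-fold in each cytokine's pair 1569. Leaving out 1 library gave 1565 to 2539 calls at 500 nM, 73 to 330 at 1 nM (390 with all) and 356 to 1102 for the difference between doses (1188 with all). The side that lost a library then had 1 left, assumed to vary like the other groups. DESeq2 called 825 at 1 nM and 1792 for the difference between doses, and limma-voom called 1 for the cytokine-by-time term. For the matched pairs, a fold of 1.5 gave 1927 higher, 1869 lower and 107 opposite, a fold of 3 gave 371, 227 and 0, and an offset of 0.25 CPM gave 131 opposite. For the courses against untreated, a fold of 3 gave 400 genes up at 24 h only and 210 down at 24 h only. It gave 100 that moved from below into the middle class and 174 from above. A fold of 1.5 gave 321 from below. Of the 268 named genes called at 500 nM, 166 were called under all 18 alternatives and 102 were not under at least 1. Ifng ranged from -2.52 without the IL-2 4 h library to 1.43 without the IL-15 4 h library, and the cause was not tested.

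No paired analysis was possible because the labels give no replicate numbers that mark a shared source and each condition has 1 library. The cytokine term is the matching that the design allows. With 1 pooled library per condition, differences between mice or cultures cannot be told apart from differences between conditions, and small changes were often missed in the simulated counts.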

Other observations

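Mycn was read at the low dose in single libraries, with no test between cytokines. At 1 nM it had 0.242 CPM at 4 h and 7.14 CPM at 24 h with IL-2, and 0.642 CPM and 0.101 CPM with IL-15, and no change with time was called there (2.35 ± 1.19). Among the largest falls at 500 nM were genes outside the lists. Slfn5, a Schlafen family gene that interferons induce, went from 78.2 and 259 CPM to 5.92 and 11.1 CPM, against 7.43 CPM untreated, and its change at 1 nM was -0.35 ± 0.25 and not called. Frmd4b, a scaffold protein gene, went from 84.9 and 74.3 CPM to 9.15 and 6.29 CPM at 500 nM, with 8.05 and 2.94 CPM at 4 h and 4.49 and 7.54 CPM at 24 h with 1 nM. Ildr1 fell at both doses, by 3.43 ± 0.30 at 500 nM and 1.24 at 1 nM.

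Promoters of other lists also held certain letters often. A CCAAT match was in 90.0% of cholesterol and fatty acid promoters and 90.5% of ER chaperone promoters, against 42.3% of the promoters of all genes tested, and a heat shock element match in 23.5% of heat shock chaperone promoters against 0.573%.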
